A study of Saccharomyces cerevisiae with 44 samples.

Results

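The 7 genes described here encode the replicative helicase of budding yeast and the factor that loads it: MCM2 (YBL023C), MCM3 (YEL032W), MCM4 (also CDC54, YPR019W), MCM5 (CDC46, YLR274W), MCM6 (YGL201C), MCM7 (CDC47, YBR202W) and CDC6 (YJL194W). They were chosen by name, as a list of systematic identifiers, and all 7 were found among the 6692 yeast rows of the expression table. All 7 were also among the 5820 genes that were tested, those with a mean of at least 1 RPKM (reads divided by gene body length in kilobases and by library size). Expression was followed by poly(A) RNA sequencing in Saccharomyces cerevisiae CEN.PK122 through metabolic cycling, a state in which respiration of a continuous culture swings between high and low phases. Both groups were this strain, fed medium with 1% glucose after a period of starvation. In the fast cycling group the medium was replaced at 0.12 to 0.13 volumes per hour and 20 libraries were taken every 13 min. In the slow cycling group the rate was 0.045 to 0.05 per hour and 24 libraries were taken every 36 min. Each group spanned 2 cycles, so the nominal cycle had 10 positions (130 min) in the fast and 12 positions (432 min) in the slow group. No replicate cultures are named in the labels. Each group was taken as 1 culture, and every p-value measures the spread between libraries of that culture.

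MCM2 to MCM7 are related ATPases that form the ring-shaped helicase of the replication fork. Before S phase, the origin recognition complex and Cdc6 bind an origin and load the ring, which Cdt1 (TAH11 in yeast) brings to them, and this step is called licensing. Kinases and further factors then activate the loaded ring, and a new round of loading is blocked until the next cell cycle. In cycling yeast, MCM and CDC6 transcripts are known to rise around the end of mitosis and the start of G1, under Mcm1, a MADS-box transcription factor, and the homeodomain repressors Yox1 and Yhp1.

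Mcm1 sites hold the core CCNNNNNNGG, which reads the same on both strands. A 120-base stretch of promoter, 240 to 121 bases upstream of the start codon, is shown for 5 of the genes because it holds most of these cores and shows how the genes differ. Capitals mark the core and, in MCM7 and CDC6, a match to CACGAAA or ACGCGT, motifs of the G1/S transcription factors SBF and MBF. The sequences are those of the RefSeq reference genome R64, build sacCer3, of the reference strain, and were not read in CEN.PK122.
MCM4: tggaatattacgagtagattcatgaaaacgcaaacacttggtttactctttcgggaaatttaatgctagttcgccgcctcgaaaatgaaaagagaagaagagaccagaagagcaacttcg
MCM5: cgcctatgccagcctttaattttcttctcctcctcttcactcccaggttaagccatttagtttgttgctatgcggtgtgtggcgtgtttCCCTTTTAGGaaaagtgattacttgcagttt
MCM6: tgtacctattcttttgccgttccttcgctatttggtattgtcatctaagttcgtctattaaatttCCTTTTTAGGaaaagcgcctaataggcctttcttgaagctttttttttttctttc
MCM7: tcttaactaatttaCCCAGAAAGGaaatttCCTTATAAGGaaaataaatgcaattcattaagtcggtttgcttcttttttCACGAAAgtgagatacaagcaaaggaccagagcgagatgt
CDC6: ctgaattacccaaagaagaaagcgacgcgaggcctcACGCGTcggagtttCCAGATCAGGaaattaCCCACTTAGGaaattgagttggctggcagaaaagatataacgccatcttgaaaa

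The stretches lie at chrXVI:596510-596629 (plus strand) for MCM4, chrXII:691315-691434 (plus) for MCM5, chrVII:121028-121147 (minus) for MCM6, chrII:625532-625651 (plus) for MCM7 and chrX:69098-69217 (plus) for CDC6. Over 300 bases upstream of the start codon, the core was present in all 7 genes and in 28.7% of 6020 yeast promoters. MCM7 and CDC6 each held a pair of cores within the stretch shown. The only core of MCM4 lay 36 to 27 bases upstream of its start codon, outside the stretch, and the only core of MCM2 lay 226 to 217 bases upstream. A longer form of the core followed by AAA, CCNNNNNNGGAAA on either strand, was chosen after the sequences were seen. It was present in 5 of the 7 (MCM3, MCM5, MCM6, MCM7 and CDC6) and in 4.24% of promoters. ACGCGT was found in CDC6 (3.47% of promoters hold it on either strand) and CACGAAA in MCM7 (4.49%). The genes themselves lie, in sacCer3 and per the file, at chrII:174920-177526 (MCM2, minus strand), chrV:86937-89852 (MCM3, plus), chrXVI:596750-599551 (MCM4, plus), chrXII:691555-693882 (MCM5, plus), chrVII:117854-120907 (MCM6, minus), chrII:625772-628309 (MCM7, plus) and chrX:69338-70879 (CDC6, plus). The motif matches describe letters in a window and were not tested for binding.

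The fast libraries held 7.60 to 19.7 M reads and the slow ones 6.45 to 13.1 M. The lowest count of an MCM gene in any library was 287 reads, a counting error of 5.90%, and that of CDC6 was 51 reads, a counting error of 14.0%. External control RNAs of known amount took 0.433 to 1.60% of gene reads in the fast libraries. In the slow group they took 0.731% and 0.679% at time points 12 and 24 and 0.907 to 1.27% at the others. RPKM values are shares of a library, and the control RNAs give a second scale on which results were recomputed. Libraries are of whole cultures, so fewer cells with a transcript and less transcript per cell cannot be told apart. MCM3 and CDC6 overlap antisense reading frames, which the sense-strand table lists at 0 and at up to 0.756 RPKM.

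In the fast cycle the 7 genes rose and fell together in a broad wave. They were lowest at position 2 or 3 of the cycle, climbed over the next positions and were highest at position 8 (91 min), except MCM4, which was highest at position 9 (104 min). Position 8 is also where 134 of 137 cytosolic ribosomal protein genes were highest, and this growth burst served as the time mark of the cycle. All 7 passed the JTK_Cycle rank test for cycling at an adjusted p under 0.05 (2.3e-06 to 0.00011, Benjamini-Hochberg over all tested genes), where 70.1% of tested genes passed. Highest values at position 8 were not particular to these genes, as 25.3% of tested genes had theirs there.

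**Figure D1:**
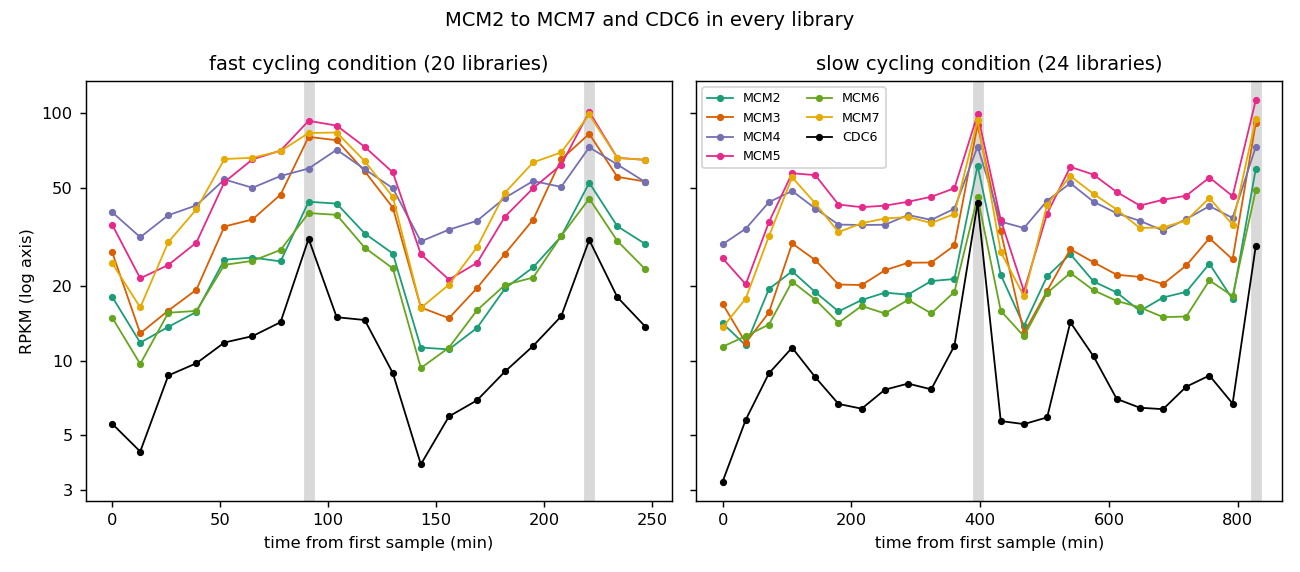
RPKM of the 7 genes (log axis) in each library against minutes from the first sample, fast cycling group on the left and slow on the right. Lines join consecutive libraries, and grey bars mark position 8 of the fast and position 12 of the slow cycle. The fast courses climb over several libraries, whereas the slow courses reach their highest values in the libraries under the grey bars.

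MCM2, which with MCM5 forms the gate through which DNA enters the ring, ran from 11.1 RPKM through a median of 25.4 to 52.4 RPKM over the 20 fast libraries. MCM5 ran from 21.3 through 55.2 to 101 RPKM. Both had their highest 2 values at time points 18 and 8, position 8 of each cycle. MCM3, whose carboxy-terminal end docks the ring on the origin-bound loader, ran from 12.9 through 37.2 to 82.7 RPKM. It had the widest fitted wave of the 7, with a cosine range (highest minus lowest value of a fitted cosine) of 2.21 ± 0.17 (SE) on the log2(RPKM + 1) scale.

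MCM4 and MCM6 carry amino-terminal tails that the Cdc7-Dbf4 kinase phosphorylates when origins fire. MCM4 ran from 30.4 through 50.2 to 72.9 RPKM and had the narrowest wave, with a cosine range of 0.87 ± 0.11 (SE). MCM6 ran from 9.34 through 23.5 to 45.2 RPKM. Thus MCM4 was the gene with the highest trough, and its lowest library exceeded the medians of MCM2 and MCM6. MCM7, a subunit of the helicase core, ran from 16.4 through 63.7 to 98.9 RPKM. CDC6, the loader, was the least abundant and ran from 3.81 through 11.7 to 31.1 RPKM.

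The wave filled much of the fast cycle. Between 5 and 6 of the 10 positions (65 to 78 min) lay above the middle of each gene's profile, the mean of the 2 cycles on the log2 scale. A cosine took 75.8 to 90.5% of the variance of each gene. The climb began before the burst: at position 6 all 7 were higher than at position 3 (limma contrast, chosen after the courses were seen, adjusted p 0.0029 to 0.029), by 0.50 (MCM4) to 1.35 (MCM7) on the log2 scale. The same contrast called 32.9% of tested genes higher and 4.74% lower, with a median of 0.29 over all genes. The ribosomal protein genes that mark the burst climbed before it as well. Of these, 112 of 137 were called higher, with a median of 1.10 against 1.09 for MCM2 to MCM7. From position 2 to position 8 all 7 were higher, by 1.07 (MCM4) to 2.66 (CDC6) (limma contrast, chosen after the courses were seen, adjusted p 1.5e-06 to 3.3e-05). These are the lowest and highest positions of most of the 7, so a rise follows from the choice. In this contrast 43.2% of tested genes were called higher and 27.8% lower.

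The fast calls depended on the scale. With values scaled to the control RNAs, the change of all genes from position 2 to 8 had a median of -0.35 in place of 0.21, and 3 of the 7 genes (MCM3, MCM7 and CDC6) still passed, where 11.0% of tested genes were called higher. The median change of the 7 was 1.50 on that scale and 2.04 on the library-size scale. Between positions 3 and 6, 0 of 7 passed with control scaling (limma; 2 at an unadjusted p under 0.05), where 21 of 5820 genes were called higher, but the median change of the 7 was 0.95 against 0.96. With median-of-ratios scaling 4 of 7 passed, and 11.1% of tested genes. JTK_Cycle called only MCM3 on the control scale, and 19.1% of tested genes. The control share differed between the cycles at the same position, with 1.02 and 0.433% at position 3 and 1.01 and 0.462% at position 6.

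In the slow cycle the same genes made a spike of a single library. All 7 were highest at position 12 (396 min), which was also the burst position, with 136 of 137 cytosolic ribosomal protein genes highest there. Time points 12 and 24 gave the 2 highest of the 24 values in each of the 7 genes. MCM5 had 99.0 and 113 RPKM there against 49.8 and 46.3 RPKM at the libraries just before. MCM2 had 61.5 and 59.7 against 21.4 and 17.7 RPKM. CDC6 had 43.4 and 29.1 against 11.5 and 6.71 RPKM, so that its pair of spikes differed more than those of the other genes. Of all tested genes, 35.7% were highest at this position.

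From position 11 to position 12 all 7 rose (limma contrast, chosen after the courses were seen, adjusted p 6.0e-07 to 6.0e-05), where 33.9% of tested genes were called higher and 31.8% lower. The rise was 0.88 ± 0.10 (SE) on the log2 scale in MCM4, 1.12 ± 0.14 in MCM5, 1.69 ± 0.20 in MCM3 and 1.90 ± 0.25 in CDC6. The median of all genes was 0.04. The control RNAs took their smallest shares of slow gene reads in these same libraries. Scaled to them, all 7 still passed, with a median rise of 1.89 where the median of all genes was 0.60.

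After the spike at time point 12, the only spike with later libraries, all 7 genes were lower at the next library and lower still at time point 14. MCM5 went from 99.0 to 37.1 and 19.1 RPKM, and CDC6 from 43.4 to 5.70 and 5.54 RPKM. Averaged over both cycles, position 2 was the lowest for MCM2, MCM3, MCM5, MCM6 and MCM7, and position 1 for MCM4 and CDC6. The position 1 troughs rest on the first cycle. In the second cycle, positions 1 and 2 had 36.5 and 34.4 RPKM in MCM4, and 5.70 and 5.54 RPKM in CDC6. MCM3 and CDC6 each had a profile range (highest minus lowest position of the profile) of 2.78 on the log2 scale, and MCM4 had the smallest, at 1.14. At these positions MCM4 had 29.6 and 36.5 RPKM in the 2 cycles, and MCM3 had 11.8 and 12.9 RPKM.

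A second, smaller rise followed, which had begun by position 3 and was highest at position 4 (108 min). The mean of MCM2 to MCM7 was 0.62 above its lowest position at position 3 and 1.08 at position 4, on the log2 scale. From position 2 to 4 all 7 were higher (limma contrast, chosen after the courses were seen, adjusted p 1.2e-06 to 0.0042), by 0.54 (MCM4) to 1.57 (MCM7), where 28.4% of tested genes were called higher and 7.30% lower. MCM7 went from 17.8 and 18.2 to 55.1 and 55.8 RPKM, and MCM5 from 20.4 and 19.1 to 57.3 and 60.8 RPKM. Cytosolic ribosomal protein genes also rose from position 2 to 4. Of these, 121 of 137 were called higher, by a median of 0.77, and 24 of 137 with control scaling. On the control RNA scale 4 of 7 passed (MCM3, MCM5, MCM7 and CDC6; 6.49% of tested genes), with a median change of the 7 of 0.95 against 1.04. Time point 16, position 4 of the second cycle, was the third highest slow library in 6 of the 7 genes, and for MCM3 it was time point 13.

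Against the plateau at position 7, position 4 was higher in 3 of 7 genes: MCM4 by 0.47 ± 0.10, MCM5 by 0.48 ± 0.14 and CDC6 by 0.88 ± 0.25 (SE; limma contrast, chosen after the courses were seen, adjusted p 0.011, 0.044 and 0.039). Only 4.69% of tested genes were called higher in this contrast, and 2.22% lower. The other 4 had differences of 0.37 to 0.64 that did not pass. With control scaling 0 of 7 passed (limma; 1 at an unadjusted p under 0.05; 1.34% of tested genes were called higher), with a median of 0.34 against 0.48. The 2 cycles gave similar values: CDC6 had 11.3 and 14.3 RPKM at position 4 against 6.40 and 6.46 RPKM at position 7.

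JTK_Cycle called 0 of 7 genes in the slow group, where it called 47.9% of tested genes, with an adjusted p of 1 for each and 0 at an unadjusted p under 0.05. That test compares ranks with a cosine, and a cosine took only 2.52 to 15.6% of the variance of the slow courses. A limma F test of position, which assumes no shape, called 7 of 7 in the slow group (adjusted p 8.0e-08 to 6.3e-06; 85.2% of tested genes) and 7 of 7 in the fast group (4.7e-06 to 0.00024; 84.1%). It still called 7 of 7 slow courses without time points 12 and 24 (69.7% of tested genes), and 7 of 7 with control scaling (74.8%). In the fast group control scaling left 1 of 7 by this test (25.5%). The 2 slow cycles correlated at r = 0.87 (CDC6) to 0.96 (MCM5) over 12 positions.

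By the fitted cosine, the swing was larger in the fast than in the slow group in all 7 genes (z test of the difference, adjusted p 0.00063 to 0.017), where 43.5% of the 4573 genes that cycled in at least 1 group were called larger in fast and 3.91% larger in slow. The 7 genes entered that set through the fast group alone, which favours a larger fast range. Adjusted over all 5820 tested genes, with no requirement to cycle, the test called 7 of 7 (adjusted p 0.00081 to 0.021) and 32.6% of genes larger in fast. It compares fitted cosines, which took little of the variance in slow. The difference was 0.62 ± 0.21 (SE) in MCM4, where control scaling turned it to -0.05, and 1.68 ± 0.43 in MCM7. With control scaling 0 of 7 passed (z test; 1 at an unadjusted p under 0.05; 5.03% of genes were called larger in fast). The distance from lowest to highest position gave another picture: it was 1.08 in fast and 1.14 in slow for MCM4, 2.41 and 2.78 for MCM3, and 2.66 and 2.78 for CDC6. Fast minus slow, these profile ranges differed by -0.37 to 0.20, with a median of -0.12; they have no test.

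**Figure D2:**
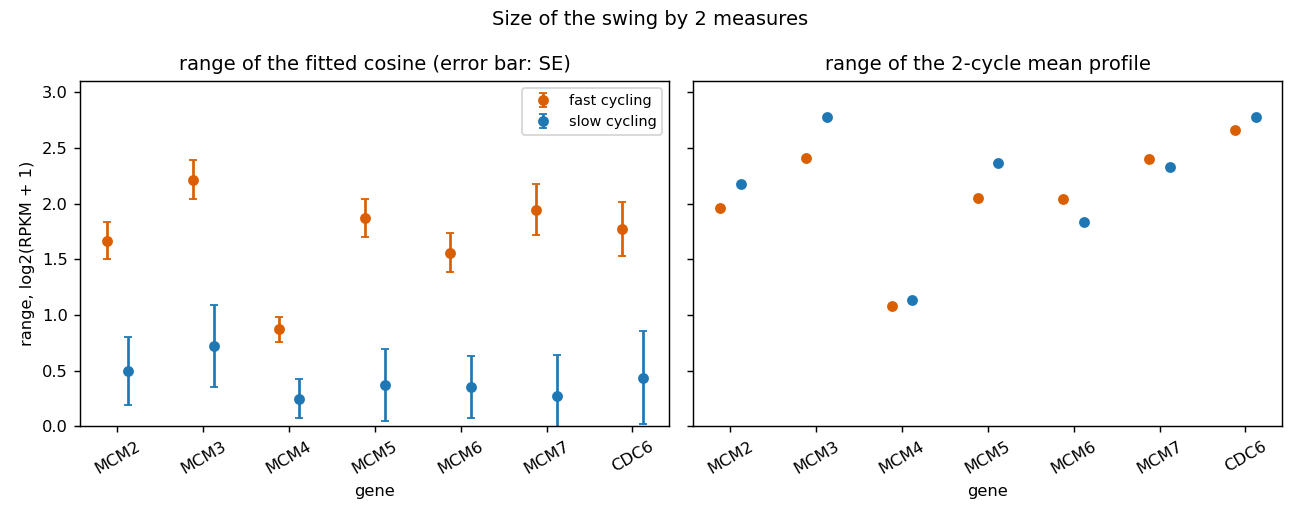
Size of the swing of each gene on the log2(RPKM + 1) scale in the fast (orange) and slow (blue) groups, as the range of the fitted cosine with its SE (left) and as the distance between the highest and lowest position of the 2-cycle mean profile (right, no error bars). The fast points lie above the slow points in all 7 genes on the left, and in 2 of 7 (MCM6 and MCM7) on the right.

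In the slow profile only position 12 (36 min) lay above the middle for MCM2, MCM3, MCM6 and CDC6, while MCM4 had 2 such positions (72 min), MCM7 3 (108 min) and MCM5 5 (180 min). Counted in whole intervals of 13 and 36 min, MCM5 and MCM7 had more minutes above the middle than in fast (65 and 78 min), and the other 5 fewer. Most of these differences, as 72 against 78 min in MCM4, are smaller than 1 slow interval. The MCM5 count joins positions 4 and 5 with positions 10 to 12. These counts have no test. Mean RPKM at the peak was 97.3 in fast and 106 in slow for MCM5, and 91.1 and 94.4 for MCM7. The slow peak was 1.04 to 1.26 times the fast peak over the 7 genes. Averaged over all libraries, 0 of 7 levels passed a test of the difference between the groups (limma, and 2 of 7 at an unadjusted p under 0.05). Of tested genes, 17.9% were higher in fast and 20.4% lower, 38.2% in all. The test had no term for position, so the swing along the cycle counted as spread between libraries. The largest difference of the 7, in MCM3, was 0.47 ± 0.22 (SE) on the log2 scale with a limma adjusted p of 0.090. Without slow time points 12 and 24, 4 genes (MCM3, MCM4, MCM6 and CDC6) passed, all higher in fast, where 47.9% of tested genes passed in either direction. With control scaling, which moved the median of all genes to 0.20, MCM3 and MCM4 passed (27.2% of tested genes), and with median-of-ratios scaling the same 2 genes did (42.3%). The shares of all genes in these alternative settings count both directions, whereas the members that passed were all higher in fast. These shares are therefore not a like comparison. The main setting had 0 of 7 against 38.2% in either direction.

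The subunits of the ring, which are present in equal number in the complex, had unequal transcript levels per length. In the fast group the mean log2 order was MCM4, MCM5, MCM7, MCM3, MCM2, MCM6 and CDC6. MCM4, MCM5 and MCM7 averaged 49.5 ± 12.2, 53.4 ± 25.0 and 53.3 ± 24.4 RPKM (SD, n = 20), and their mean log2 differences, 0.01 and 0.02, were smaller than the spread of those differences between libraries. MCM3 exceeded MCM2 in 20 of 20 libraries, and MCM6 exceeded CDC6 in 20 of 20. MCM2 and MCM6 differed by 0.09 ± 0.16 (SD, n = 20), within the spread. In the slow group the order was MCM5, MCM4, MCM7, MCM3, MCM2, MCM6 and CDC6, and MCM4 exceeded MCM7 in 13 of 24 libraries.

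Within this common course, some subunits moved against the others. Each gene was set against the mean of the other MCM2 to MCM7 genes in the same library, a difference that scaling of a library hardly touches, and its dependence on position was tested with a limma F test. In the fast group 4 of 7 passed (MCM3, MCM4, MCM7 and CDC6; 94.0% of tested genes passed), and in the slow group 6 of 7, all but MCM6 (98.5% passed). Most yeast genes thus departed from the MCM course, and MCM2, MCM5 and MCM6 in fast were among the few that did not pass.

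**Figure D3:**
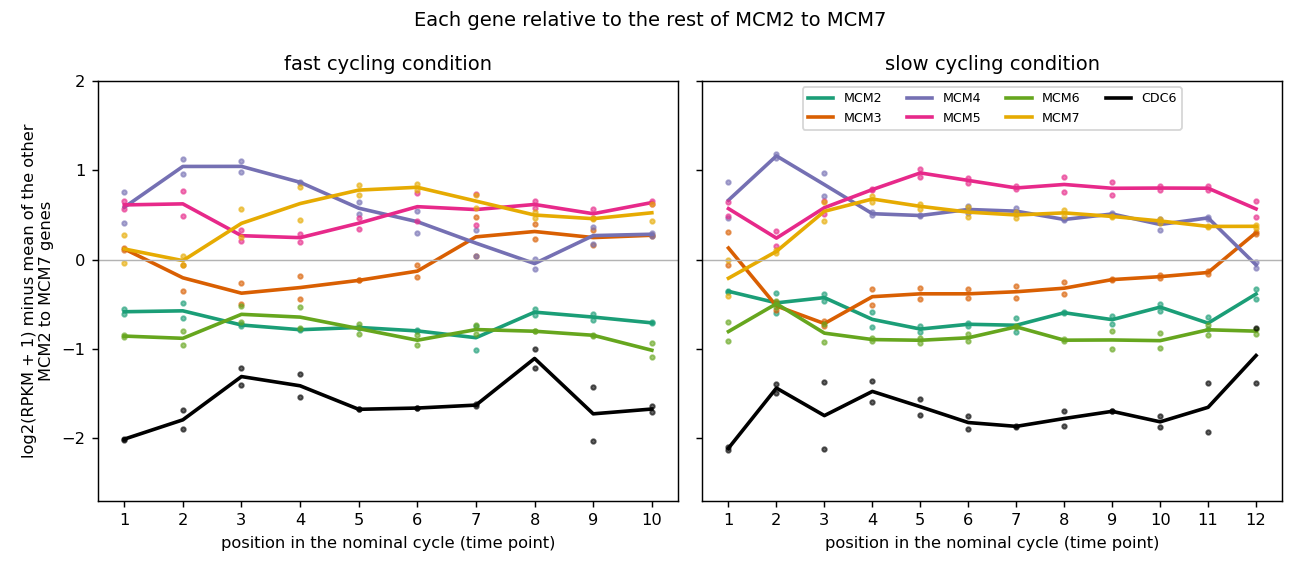
Log2(RPKM + 1) of each gene minus the mean of the other MCM2 to MCM7 genes in the same library, by position in the cycle, for the fast (left) and slow (right) groups. Dots are the 2 cycles and lines their mean. MCM4 is high at the trough and lowest at the burst in both groups, while MCM3 and CDC6 are highest at the burst.

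MCM4 moved most against the rest (limma F test, adjusted p 0.00029 in fast and 3.4e-05 in slow). It lay 1.04 above the others on the log2 scale at fast position 3 and 0.04 below them at position 8, and 1.16 above at slow position 2 and 0.06 below at position 12. MCM3 went the opposite way, from -0.38 at fast position 3 to 0.32 at position 8, and from -0.72 at slow position 3 to 0.30 at position 12. CDC6 was also nearest to the MCM genes at the burst, at -1.11 in fast and -1.07 in slow, against its furthest values of -2.01 and -2.11 at position 1. MCM7 had its highest relative value, 0.81, at fast position 6, before the burst. In slow its highest, 0.68, was at position 4, and it was 0.37 at positions 11 and 12. As a result the most abundant subunit changed along the cycle: MCM4 at fast positions 2 to 4, MCM7 at positions 5 to 7 and MCM5 at positions 8 to 10. The highest stood 2.23 to 3.25 times above the lowest over all positions of both groups.

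The courses correlated closely across libraries, a description in which all pairs share the library and its depth. Among MCM2 to MCM7 the Pearson r of log2 values ran from 0.91 (MCM3 with MCM7) to 0.98 (MCM2 with MCM3) over 20 fast libraries and from 0.82 (MCM4 with MCM5) to 0.96 (MCM2 with MCM6) over 24 slow libraries. CDC6 correlated with them at 0.88 to 0.94 in fast and 0.84 to 0.95 in slow.

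The rest of the licensing machinery had smaller ranges. ORC1 to ORC6, the subunits of the origin recognition complex, and TAH11 had a median profile range of 0.96 in fast and 0.73 in slow, below the medians of 2.04 and 2.25 for MCM2 to MCM7 and of 1.13 and 1.16 for all tested genes. In fast 7 of the 7 depended on position (84.1% of tested genes) and in slow 4 of 7 (85.2%; limma F test). From fast position 2 to 8, 7 of these 7 were higher (43.2% of tested genes). With control scaling 0 of these 7 passed, where 11.0% of tested genes were called higher. The median rise was then 0.37 against 0.91, and ORC1 changed sign (0.33 to -0.24). ORC4 and ORC3 had the largest fast ranges of the 7, 1.15 and 1.13, with ORC4 between 18.7 and 49.7 RPKM. ORC5, at 24.7 to 55.7 RPKM in slow, and TAH11 had the largest slow ranges, 1.02 and 1.06.

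TAH11, the partner that brings the ring to the origin, did not share the spike. It stood at 58.4 and 52.0 RPKM at slow position 11 and 32.8 and 31.8 RPKM at position 12, which fell by 0.75 on the log2 scale (limma, adjusted p 1.1e-05). MCM10, an activation factor that acts on the loaded ring, went from 10.1 and 8.75 to 3.94 and 5.43 RPKM (fell by 0.88, adjusted p 0.00052). With control scaling neither fall passed, at -0.18 for TAH11 and -0.39 for MCM10, where the median of all genes was 0.60. Both were thus below the median gene on each scale.

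**Figure D4:**
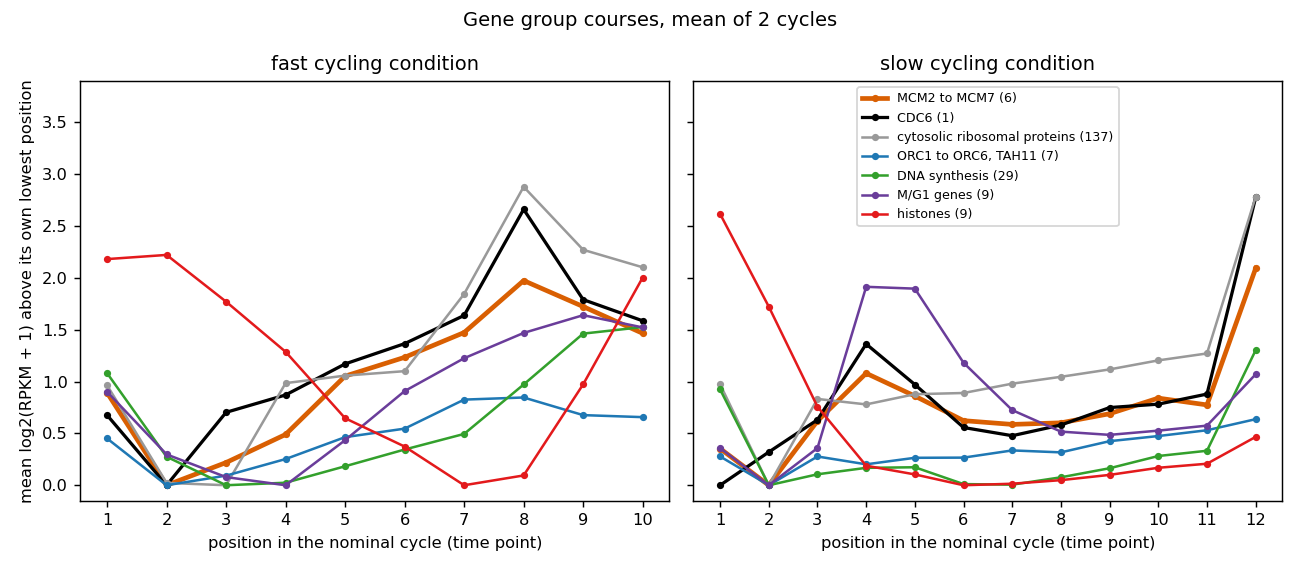
Mean log2(RPKM + 1) of gene groups above their own lowest position, by position in the cycle, mean of 2 cycles, for the fast (left) and slow (right) groups, with the number of genes in each group in the legend. MCM2 to MCM7 climb ahead of the DNA synthesis genes in fast. In slow they rise from position 2 through position 3 (0.62) to position 4 (1.08), and again at position 12. The M/G1 genes are at 0.36 at slow position 3 and at 1.91 at position 4. The ribosomal protein genes also climb before the burst in fast, and in slow they rise from position 2 to 3.

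The factors that turn the loaded ring into a fork, 12 genes for Cdc45, the GINS complex and their partners, had median ranges of 0.91 in fast and 1.01 in slow. CDC45 had the largest, 2.18 in fast, from a trough of 11.3 and 11.5 RPKM at position 5 to 54.6 and 55.4 RPKM at position 10. In slow it rose from 16.5 and 14.1 RPKM at position 11 to 54.2 and 67.0 RPKM at position 12 (limma, adjusted p 1.8e-07). SLD5, a GINS subunit, rose there from 23.3 and 18.3 to 40.1 and 37.1 RPKM. Of the 12, 7 rose and 1 (MCM10) fell from slow position 11 to 12, where 33.9% of tested genes rose and 31.8% fell. With control scaling 10 of the 12 rose and 0 fell, and 52.4% of tested genes rose.

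Genes of DNA synthesis, 29 for polymerases, clamp, clamp loader, nucleotide supply and related factors, came later than MCM2 to MCM7 in the fast cycle. Their commonest fast peak was position 10 (20 of 29), and at position 7 the mean profile had covered 32.4% of its rise, against 74.6% for MCM2 to MCM7. By then the ribosomal protein genes had covered 64.1% of theirs, ORC1 to ORC6 with TAH11 97.6% and all tested genes 88.5%. RNR1, the large subunit of ribonucleotide reductase, was at 20.2 and 23.2 RPKM at position 7 and 201 and 183 RPKM at position 9. POL30, the sliding clamp, had a fast range of 2.90 and peaked at position 10 with 203 and 212 RPKM. In slow, 21 of 29 were highest at position 12, as were 35.7% of tested genes. From position 11 to 12, 24 of 29 rose and 2 fell (33.9% and 31.8% of tested genes). With control scaling 27 of 29 rose, and 52.4% of tested genes. DPB2, a subunit of DNA polymerase epsilon, went from 7.42 and 5.67 to 45.7 and 54.3 RPKM. At slow position 4, 0 of 29 were higher than at position 7 by limma, and 1 of 29 at an unadjusted p under 0.05. As only 4.69% of tested genes were called higher, this count is near the share of all genes. With control and median-of-ratios scaling it was 0 of 29 too (1.34% and 5.48% of tested genes). RNR1 had 13.8 and 16.6 RPKM at slow position 4 against 180 and 213 RPKM at position 12.

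M/G1 genes, the class in which CDC6 and the MCM genes are placed in cycling yeast, were also higher at slow position 4. Of 9 such genes, 6 were higher there than at position 7 (limma; 4.69% of tested genes; 4 of 9 and 1.34% with control scaling). The contrast did not single out this class. Of 8 transcription regulators 4 were higher too, and of 12 cyclin and kinase genes 4 were, including SIC1, which is also among the 9. Among these the mitotic cyclin genes CLB1 and CLB2 differed by 2.98 and 2.90, SWI5 by 2.98 and YHP1 by 2.77 on the log2 scale, more than any of the 9. EGT2, a cell separation gene, had 268 and 217 RPKM against 52.7 and 48.9 RPKM. PCL9, a cyclin of early G1, had 204 and 175 RPKM against 39.5 and 38.3 RPKM. EGT2 and PCL9 were not higher at position 12 than at position 11. Of the 9, 4 rose and 3 fell there, where 33.9% of tested genes rose and 31.8% fell. PCL9 went from 23.0 and 21.2 to 15.8 and 14.5 RPKM, and EGT2 had 14.3 and 15.8 RPKM before and 15.1 and 10.9 RPKM after. With control scaling 5 of the 9 rose and 1 fell, where 52.4% of tested genes rose. PCL9 then changed by 0.04 in place of -0.52 on the log2 scale and EGT2 by 0.34 in place of -0.21, and neither passed. CLN3, a G1 cyclin, had both features in its values, with 54.6 and 47.1 RPKM at position 4, 34.8 and 30.2 RPKM at position 7 and 234 and 212 RPKM at position 12, though its difference between positions 4 and 7 did not pass (adjusted p 0.062). In fast, FAR1, an inhibitor of G1 cyclin-dependent kinase, had the largest range of the 9, at 4.47, and PCL2, a G1 cyclin, followed at 2.79.

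Regulators of these promoters had courses of their own. MCM1 ran from 136 to 225 RPKM in fast and from 89.5 to 225 RPKM in slow, with profile ranges of 0.57 and 0.75. Its fast course depended on position (limma F test, adjusted p 0.015), with a rise by 0.57 from position 2 to 8 that was -0.01 with control scaling, and its slow course did not pass (adjusted p 0.29). YHP1 and YOX1, the repressors, were highest at slow position 2, where the MCM genes were lowest or next to lowest. YHP1 had 91.9 and 93.8 RPKM there and 33.5 and 31.6 RPKM at position 4, and YOX1 had 42.0 and 39.1 RPKM at position 2 and 13.2 and 13.6 RPKM at position 4. At position 12, YOX1 was at 38.8 and 40.4 RPKM, up from 5.33 and 3.05 RPKM. In the fast group YOX1 had the largest range of the regulators, at 2.92, and was highest at position 9 with 90.2 and 96.9 RPKM. SWI5, an activator of M/G1 genes, had 124 and 160 RPKM at slow position 3 and 12.0 and 9.89 RPKM at position 12, and a fast range of 1.60.

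Cyclin genes marked the positions around the MCM peak. CLN2, a G1/S cyclin, was highest at fast position 9 with 324 and 261 RPKM, and CLB6, an S-phase cyclin, at the same position with 15.3 and 18.0 RPKM. In slow, CLB6 was at 1.29 and 1.44 RPKM at position 11 and 17.3 and 24.7 RPKM at position 12, while CLB1, a mitotic cyclin, was highest at position 3 with 102 and 108 RPKM. Histone transcripts followed the MCM genes: HTA2 was lowest at fast position 7 with 26.8 and 36.0 RPKM and highest at position 1 with 378 and 405 RPKM. HHF2 was highest at fast position 2 with 975 and 1226 RPKM. In slow, HTB2 was highest at position 1 with 2283 and 2512 RPKM, the position after the MCM spike, and HTA2 was highest there with 503 and 497 RPKM. Histone genes have near-identical copies, so their values are uncertain.

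The timing of MCM2 to MCM7 relative to the ribosomal protein genes was close in fast. Their fitted phases differed by -0.018 ± 0.026 of a cycle (SE), and the highest cross-correlation of the mean profiles was at a lag of 0 positions. In slow the difference was 0.033 ± 0.169 of a cycle, and it was -0.174 ± 0.102 without time points 12 and 24, so the fitted slow phase rests on those libraries. The genes whose courses were most like the mean of MCM2 to MCM7, by the lower of the correlations in the 2 groups, were GAT1, MNL2, TRM3, URB1, EMW1, RPA190, YCR016W and JJJ1. GAT1, a GATA-type activator of nitrogen-regulated genes, had r = 0.97 over 20 fast and 0.96 over 24 slow libraries. It ran from 75.8 through a median of 282 to 649 RPKM in fast. RPA190 encodes the largest subunit of RNA polymerase I and had r = 0.95 and 0.94, with a fast range of 4.25. All 8 were highest at fast position 8 and slow position 12, as was the MCM2 to MCM7 mean by which they were chosen. The median lower r over 5813 other genes was 0.12, and that of CDC6 was 0.93.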

How the data were processed

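The authors deposited 1 table of RPKM values for 44 libraries. Per the file headers, HOMER counted sense-strand reads over gene bodies of an SGD annotation of sacCer3 joined to 92 control sequences. FastQC 0.10.1, TopHat2 2.0.10, HOMER and build sacCer3 are named per the submitters' processing notes. Treatment of multiply matching reads is not stated there. The labels give no RNA-extraction group per sample, so batches could not be tested. Low RPKM values were whole multiples of 1 read within 0.1 in 100% of values, which gave the depth.

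Tests used log2(RPKM + 1) of genes averaging at least 1 RPKM. The rank test for cycling was a reimplementation of JTK_Cycle (periods of 9 to 11 intervals in fast and 11 to 13 in slow). Levels, position effects and contrasts used limma 3.58.1 (R 4.3.3), and cosine ranges a z test on delta-method errors. The adjusted p is Benjamini-Hochberg over all genes tested, with a threshold of 0.05. Python 3.11.15, numpy 2.4.6, pandas 2.3.3, scipy 1.17.1 and matplotlib 3.10.9 were used. Scripts were tested on simulated data.

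Of the deposited rows found in the R64 reference, 6000 of 6008 had the same start and end, all 7 genes among them. Genes and lists were chosen with earlier results of these data known. The 5 position contrasts and the longer Mcm1 motif were chosen after seeing the values. The text names all 7 genes, at least the 2 of each list with the largest profile range in each group, and the 8 genes most like the MCM mean. TAH11, MCM10, CLN3, MCM1 and others beyond that were chosen after their values were seen. Alternatives were scaling, pseudocount, low-value filter, period, threshold, detrending and leaving out slow time points 12 and 24. A further motif that was searched is not reported here.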

Additional observations from a re-analysis of the deposited data

Results flagged for a closer look

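The fitted cosine range differed between the fast and slow groups in all 7 genes by a z test of the difference itself. The genes entered that test because they cycled in fast, and none cycled by JTK_Cycle in slow. Adjusted over all 5820 tested genes, with no requirement to cycle, 7 of 7 passed. Fast minus slow on the log2(RPKM + 1) scale, it was 1.17 in MCM2, 1.49 in MCM3, 0.62 in MCM4, 1.50 in MCM5, 1.20 in MCM6, 1.68 in MCM7 and 1.33 in CDC6. The distance between highest and lowest position did not follow it, with differences of -0.37 to 0.20. Whether the shape of the slow course, in which a cosine took 2.52 to 15.6% of the variance, accounts for the cosine difference was not tested.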

How the results depend on the processing

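Scaling to the control RNAs left 1 of 7 genes cycling in fast, by JTK_Cycle and by the limma F test of position alike, 0 with a different cosine range and 2 with a different level. On that scale, 3 genes passed from fast position 2 to 8, 0 from fast position 3 to 6, 4 from slow position 2 to 4 and 0 from slow position 7 to 4. Medians of the 7 there were 1.50, 0.95, 0.95 and 0.34 on the log2 scale, against 2.04, 0.96, 1.04 and 0.48 on the library-size scale, and 641, 21, 378 and 78 of 5820 genes were called higher, against 2517, 1917, 1654 and 273. Median-of-ratios scaling left 4 from fast position 3 to 6 and gave 2 with a different level. The limma F test called 7 slow courses, 7 with control scaling and 7 without slow time points 12 and 24. Leaving out those 2 libraries gave 4 genes with a different level and a slow delay of -0.174 of a cycle in place of 0.033, a change of sign. The other 50 pairings of such a result with an alternative stayed within 1.5 times the count, or within the error of a delay. The cosine range difference of MCM4 also changed sign on the control scale, where it did not pass. In fast, the cosine range moved by more than its error with control and median-of-ratios scaling in all 7 genes. No paired analysis was possible because the numbers shared by the groups are time points of different spacing, not replicates. With 1 culture per group, no value here has a replicate culture behind it. The contrasts and the F test with control scaling or without 2 libraries, and the range test over all genes, were chosen after seeing the data.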
